A study of Rattus norvegicus with 11 samples.

Results

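Heat shock proteins and their DnaJ co-chaperones were followed in retroperitoneal white adipose tissue of 11 ovariectomized rats. Their genes were taken from the deposited count table by name: rows starting with Dnaja, Dnajb, Dnajc, Hspa, Hspb, Hspd, Hspe or Hsph and a digit, or with Hsp90, and the rows of Bag3, Cryab and Hsf1. This gave 75 of 25275 rows, standing for 74 symbols because Hspa8 has 2 rows, and no row is named Hspe1. Of the 75 rows, 72 held at least 1 count and 67 passed the filter on low counts and were tested.

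The animals were female wild-type Wistar rats, 10 weeks old at the start and 19 weeks old at collection. All 11 had eaten a western diet for 6 weeks before ovariectomy and were then treated with degarelix, which blocks the gonadotropin-releasing hormone receptor and so lowers the pituitary's own follicle-stimulating hormone (FSH). The osmotic pumps of 6 rats held vehicle (the degarelix only group), and those of 5 rats delivered 6 µg of FSH per kg body weight daily (the degarelix plus FSH group). Intake was restricted for 12 days, then unrestricted for 7 days, and the fat was collected after 4 h without food. One RNA library was made per rat, so n counts animals, and every difference below is degarelix plus FSH relative to degarelix only. The tissue is bulk fat, so fewer cells of a type and less RNA per cell cannot be told apart.

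Chaperones of the Hsp70 family bind unfolded stretches of protein and release them in a cycle driven by ATP. DnaJ proteins (Hsp40) hand them their clients and start the cycle, Hsp110 proteins such as Hsph1 reset it by exchanging nucleotide, and Hsp90 proteins finish the folding of kinases and hormone receptors. Heat, oxidation and other damage release the transcription factor Hsf1, which binds heat shock elements and switches on a stress-induced set, whereas constitutive relatives such as Hspa8 serve cells at rest. The endoplasmic reticulum and the mitochondria have their own members, and those of the endoplasmic reticulum answer to the unfolded protein response.

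Promoters from 4 classes are shown first, because these elements are how the stress response is known to reach its targets. Each promoter printed is an example that holds a match, while other promoters of these classes hold none, as counted below. RefSeq promoters (build GRCr8) were matched for 57 of the 74 symbols, and the 250 bases before the annotated start were searched on both strands. The heat shock element is built of GAA and TTC units that alternate 2 bases apart. It was searched as 3 units (TTC, GAA, TTC, or the reverse complement) and as 2 units (GAANNTTC or TTCNNGAA, each its own reverse complement and each contained in the 3-unit form). The endoplasmic reticulum stress element was searched as CCAAT and CCACG with 9 bases between them. Hspa1b, Hsp90aa1, Cryab and Dnajb4 were not matched. Capitals mark the matches, and the sequences run 5′ to 3′ and end at the base before the start. The first 4 are stress-induced genes, then come the constitutive Hspa8, the mitochondrial Hspd1 and the endoplasmic reticulum gene Hspa5.
Hsph1, Hsp110, chr12:10427118-10427367, plus strand: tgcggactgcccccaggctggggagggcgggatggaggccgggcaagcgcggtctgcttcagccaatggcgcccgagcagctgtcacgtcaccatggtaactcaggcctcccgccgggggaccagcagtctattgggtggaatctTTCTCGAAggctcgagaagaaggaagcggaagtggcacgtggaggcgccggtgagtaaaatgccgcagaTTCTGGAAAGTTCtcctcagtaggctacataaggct
Dnajb1, Hsp40, chr19:41431142-41431391, minus strand: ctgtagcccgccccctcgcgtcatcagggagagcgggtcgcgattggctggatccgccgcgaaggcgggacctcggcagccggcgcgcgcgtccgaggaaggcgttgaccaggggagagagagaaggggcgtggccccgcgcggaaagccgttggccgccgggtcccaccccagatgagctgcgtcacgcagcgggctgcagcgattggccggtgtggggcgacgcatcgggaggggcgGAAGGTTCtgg
Hspb1, small heat shock protein, chr12:26432302-26432551, minus strand: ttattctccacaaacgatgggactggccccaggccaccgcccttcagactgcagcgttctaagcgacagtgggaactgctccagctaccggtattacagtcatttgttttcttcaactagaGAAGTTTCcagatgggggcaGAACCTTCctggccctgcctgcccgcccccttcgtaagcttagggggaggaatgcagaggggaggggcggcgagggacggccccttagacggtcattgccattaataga
Bag3, Hsp70 cofactor, chr1:192533210-192533459, plus strand: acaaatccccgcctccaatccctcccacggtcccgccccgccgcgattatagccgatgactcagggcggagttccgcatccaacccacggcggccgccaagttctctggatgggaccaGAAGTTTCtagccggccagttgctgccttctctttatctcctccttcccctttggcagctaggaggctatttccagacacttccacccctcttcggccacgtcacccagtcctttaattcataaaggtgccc
Hspa8, constitutive Hsp70, chr8:50080264-50080513, plus strand: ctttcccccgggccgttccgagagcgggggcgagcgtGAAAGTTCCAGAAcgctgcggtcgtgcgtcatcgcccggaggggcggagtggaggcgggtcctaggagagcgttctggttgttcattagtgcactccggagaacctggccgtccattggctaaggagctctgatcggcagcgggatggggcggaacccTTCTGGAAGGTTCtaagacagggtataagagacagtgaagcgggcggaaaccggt
Hspd1, mitochondrial Hsp60, chr9:64084038-64084287, minus strand: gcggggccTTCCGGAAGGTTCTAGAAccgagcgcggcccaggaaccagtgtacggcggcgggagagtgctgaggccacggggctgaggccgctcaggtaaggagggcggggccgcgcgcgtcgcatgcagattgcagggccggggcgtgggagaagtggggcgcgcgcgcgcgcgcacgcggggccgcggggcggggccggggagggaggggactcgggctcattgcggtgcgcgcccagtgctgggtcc
Hspa5, Hsp70 of the endoplasmic reticulum, chr3:38452766-38453015, plus strand: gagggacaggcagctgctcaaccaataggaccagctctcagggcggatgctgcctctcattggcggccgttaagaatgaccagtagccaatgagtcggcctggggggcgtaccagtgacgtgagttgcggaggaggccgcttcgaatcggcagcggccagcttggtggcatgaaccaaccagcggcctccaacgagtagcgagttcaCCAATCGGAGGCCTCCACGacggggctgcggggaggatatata

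A 2-unit heat shock element lay in 6 of the 7 stress-induced promoters matched, the exception being Hspa1a, in 3 of 9 constitutive ones, in 2 of 5 mitochondrial ones and in 0 of 10 promoters of endoplasmic reticulum members. Of all 33469 promoters in the table, 13.5% held one. The 3-unit form lay in the windows of Hsph1, Hspa8 and Hspd1 among the members, against 0.663% of all promoters. The endoplasmic reticulum stress element lay in 3 of 10 promoters of endoplasmic reticulum members (Hspa5, Hsp90b1 and Dnajc3) and in 0.0657% of all promoters. In Hsph1 the 3-unit element covers the bases 36 to 24 before the start, and in Hspa5 the stress element covers the bases 43 to 25 before it. These are matches of letters only, and binding was not measured.

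Total counts were 13163021 to 23694602 per library, and edgeR's quasi-likelihood test was run on 12846 genes with p-values adjusted by Benjamini-Hochberg and called below 0.05. Expression is given as CPM (counts scaled by the TMM-adjusted library total), which is not divided by gene length, so levels are compared between rats and never between genes. The adipocyte markers Adipoq, Plin1, Fabp4, Lep, Cidec and Lipe summed to between 35766 and 47470 CPM in all libraries. On the second principal component (17.9% of the variance) degarelix only replicate 4 lay farthest from the mean, at -25.2, and on the first (23.9%) FSH replicate 3 did, at 37.9. All pairs of libraries differed by more than sampling noise.

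None of the 67 members tested passed the threshold over all genes in edgeR's quasi-likelihood test, where 2.27% of all genes tested did (1.07% lower and 1.21% higher with FSH). Groups that did not overlap were seen for 1 member, Dnajc9, and for 4.34% of all genes (1.8% with FSH lower and 2.54% with FSH higher). At an unadjusted p under 0.05 there were 24 members, 17 lower and 7 higher with FSH, against 22.6% of all genes (10.8% lower and 11.8% higher). The fitted value was below 0 for 41 of 67 members, against 48.4% of all genes. DESeq2 called 11 of the 66 members to which it gave an adjusted p (16.7%), against 9.62% of all such genes (1105 of 11489). They were Hspa1b, Dnajb1, Hspa4, Hspa9, Dnajc11 and Dnajb12 as lower and Hspa2, Hspa12b, Dnajc8, Dnajc9 and Dnajc17 as higher. The differences in the paragraphs that follow are therefore levels and fitted values, not calls, except where a call is named.

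The stress-induced cytosolic class was highest in a pair of degarelix only rats, replicates 4 and 3. Its median log2 change was -0.61 over 10 members tested, all 10 fitted lower, beside a median of 0.01 for all genes tested. Degarelix only replicate 4 held the highest value of the 11 rats in 8 of the 10 (80.0%, against 9.62% of the 12157 genes with a mean of at least 1 CPM). That was not particular to this class: replicate 4 was also the highest rat in 5 of 11 constitutive and 5 of 10 endoplasmic reticulum members. It was so in 0 of 7 mitochondrial members. Replicates 4 and 3 together were the top pair in 7 of the 10 stress-induced members, against 2.09% of all genes with a mean of at least 1 CPM. This pair was singled out after these values were seen, so the shares only describe it. Without replicate 4 the class median was -0.32 with 8 members fitted lower, and without both replicates it was -0.17, again with 8. Every value in the following paragraphs is from all 11 rats unless a left-out rat is named.

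**Figure D1:**
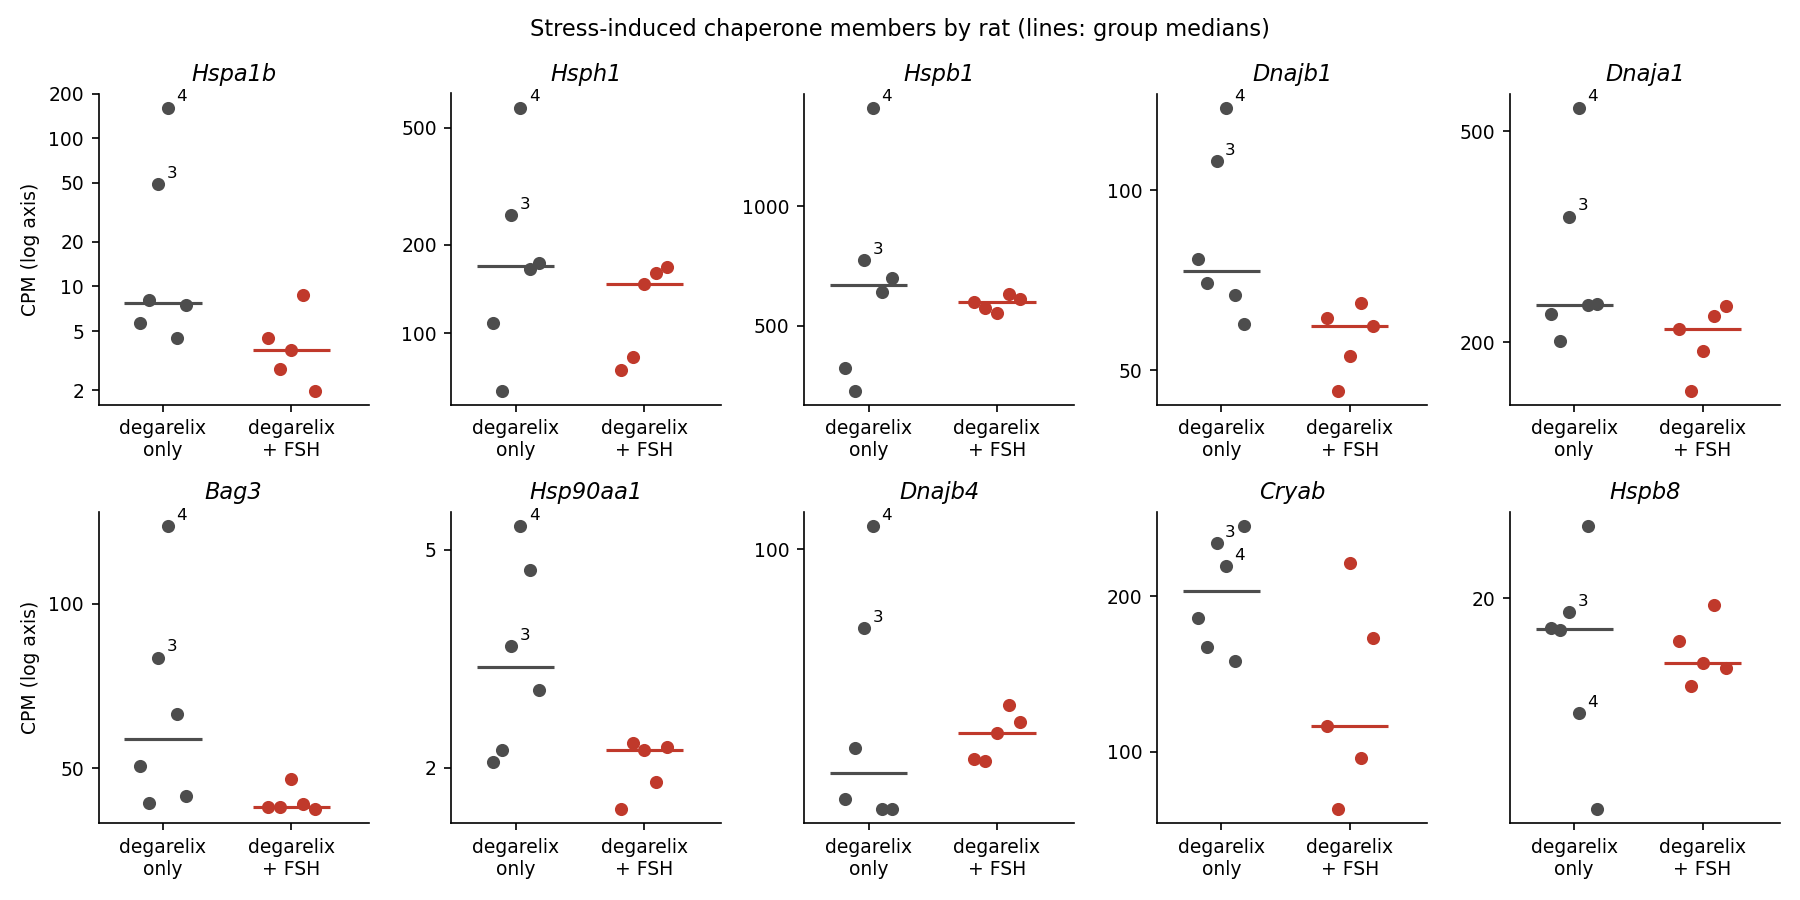
CPM (log axis) of the 10 tested stress-induced members, 1 point per rat, with a line at the group median; the numbers 3 and 4 mark those degarelix only replicates. Replicate 4 is the highest rat for every panel but Cryab and Hspb8, and for Hspa1b it reaches 161 CPM where all FSH rats are at 8.71 CPM or less.

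Hspa1b (ENSRNOG00000050647), the strongly heat-inducible cytosolic Hsp70, stood at 5.66, 8.07, 49.0, 161, 4.46 and 7.45 CPM in degarelix only replicates 1 to 6. In FSH replicates 1 to 5 it stood at 4.50, 2.78, 3.71, 8.71 and 1.99 CPM. Replicates 4 and 3 without FSH were far above the rest, and the other 4 degarelix only rats overlapped the FSH rats. The means were 39.2 ± 61.9 CPM (SD, n = 6) and 4.34 ± 2.62 CPM (SD, n = 5), with a log2 change of -3.18 ± 1.057 (SE) (adjusted p = 0.117 in edgeR's quasi-likelihood test). Without replicate 4 the change was -1.78, and without replicates 3 and 4 it was -0.57 (adjusted p = 0.391). On all 11 rats DESeq2 called it lower (adjusted p = 0.0153). The near-identical copy Hspa1a held 1 count in degarelix only replicate 2 and 4 counts in replicate 4 and none elsewhere, so the division of reads between these copies is uncertain. With both rows summed the log2 change was -3.18 (adjusted p = 0.117).

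Hsph1 (ENSRNOG00000000902), the Hsp110 that resets Hsp70, stood at 108, 63.8, 252, 586, 165 and 174 CPM in the degarelix only replicates and at 74.7, 83.0, 147, 159.9 and 168 CPM in the FSH replicates. Apart from replicates 3 and 4 the groups covered the same range. Its log2 change was -0.83 ± 0.49 (adjusted p = 0.337), or -0.27 without replicate 4 and -0.01 without both.

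Dnajb1 (ENSRNOG00000021824), the main heat-inducible Hsp40 partner of Hsp70, stood at 76.6, 69.8, 112, 138, 66.7 and 59.8 CPM without FSH and at 61.0, 46.2, 52.8, 64.7 and 59.3 CPM with FSH. Here the FSH rats sat at the low end of the degarelix only range as a group. The means were 87.1 ± 30.8 and 56.8 ± 7.33 CPM (SD, n = 6 and n = 5), with a log2 change of -0.62 ± 0.21 (adjusted p = 0.122). It was -0.44 without replicate 4 and -0.26 without both, and DESeq2 called it (adjusted p = 0.0393).

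Dnaja1, another cytosolic Hsp40, reached 554 CPM in degarelix only replicate 4 and 345 CPM in replicate 3, where the other 4 rats of that group lay between 201 and 236 CPM. The FSH rats lay between 162 and 234 CPM (log2 change -0.55 ± 0.25, adjusted p = 0.215; -0.28 without replicate 4 and -0.13 without both). Bag3, the cofactor that links Hsp70 to small heat shock proteins and to autophagy, stood at 50.4, 43.1, 79.6, 139, 62.7 and 44.5 CPM without FSH and within 42.1 to 47.8 CPM in all 5 FSH rats. The FSH rats lay close together at the low end of the degarelix only range (log2 change -0.68 ± 0.28, adjusted p = 0.180; -0.36 without replicate 4 and -0.20 without both).

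Hspb1 (ENSRNOG00000023546), a small heat shock protein that holds unfolded proteins until Hsp70 takes them, stood at 391, 343, 729.8, 1773, 608 and 659.99 CPM without FSH and at 575, 554, 539, 601 and 584 CPM with FSH. The FSH rats lay in the middle of the degarelix only range, above 2 rats and below 4. The log2 change was -0.40 ± 0.36 (adjusted p = 0.539), and without replicate 4 it turned to 0.06. Dnajb4, a heat-inducible Hsp40, stood at 59.8, 66.4, 85.0, 105 and at 58.6 CPM in both replicates 5 and 6 without FSH, and between 64.7 and 72.6 CPM with FSH. The FSH rats again lay in the middle, and its log2 change of -0.08 ± 0.15 (adjusted p = 0.776) became 0.05 without replicate 4.

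Cryab, the small heat shock protein alphaB-crystallin, did not follow replicate 4. It stood at 181, 159.7, 253, 229, 149.7 and 274 CPM without FSH and at 112, 77.5, 232, 97.1 and 166 CPM with FSH. FSH replicates 1, 2 and 4 lay below every degarelix only rat, while replicates 3 and 5 lay inside the range (log2 change -0.60 ± 0.27, adjusted p = 0.219; -0.57 without replicate 4). Hspb8, the partner of Bag3, showed neither pattern, with 14.7 CPM in replicate 4 against a group range of 11.4 to 24.3 CPM and a log2 change of -0.03 ± 0.16 (adjusted p = 0.927).

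Hsp90aa1, the inducible cytosolic Hsp90, held 2.05, 2.16, 3.33, 5.52, 4.58 and 2.78 CPM without FSH and 1.68, 2.22, 2.15, 1.88 and 2.18 CPM with FSH. These values rest on 28 to 120 counts per library, and the rat genome holds many pseudogene copies of this gene, with a further row, LOC103692716, described as an Hsp90-alpha, so its level is uncertain. The log2 change was -0.75 ± 0.26 (adjusted p = 0.131), and -0.71 (adjusted p = 0.146) with the other row added. Hsf1 itself, the factor that drives the class, stood at 51.8 to 63.3 CPM without FSH and at 47.0 to 60.1 CPM with FSH. The fitted value was 0.01 ± 0.08 on the log2 scale (adjusted p = 0.975). Its highest value was also in degarelix only replicate 4, at 1.20 times the median of the other rats of its group, and its sign changed with the scaling.

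**Figure D2:**
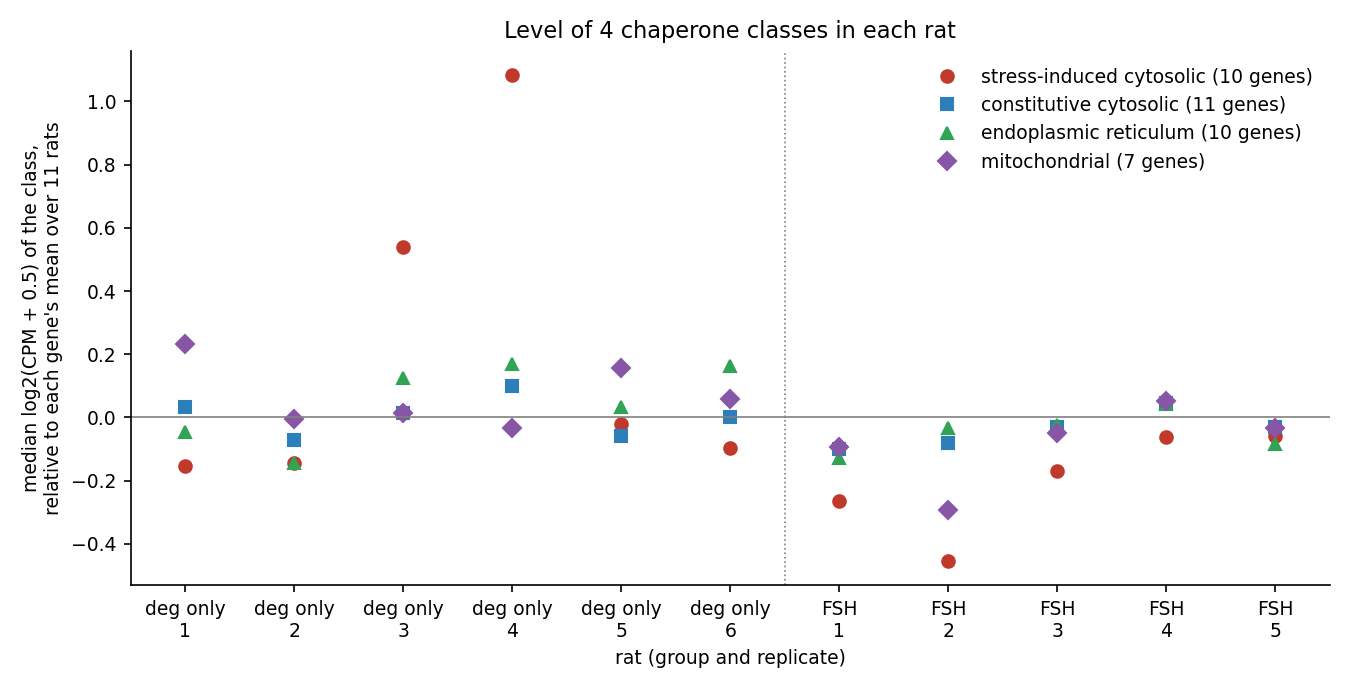
Median over each class of log2(CPM + 0.5), each gene taken relative to its mean over the 11 rats; 1 symbol per class and rat, with the degarelix only rats left of the dotted line. The stress-induced class stands at 1.08 in degarelix only replicate 4 and 0.54 in replicate 3, and between -0.45 and -0.02 in the other 9 rats, while the other 3 classes stay between -0.29 and 0.23.

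The constitutive cytosolic class had a median log2 change of -0.05 over 11 members tested, 8 fitted lower and 3 higher. Hspa8 (ENSRNOG00000034066), the constitutive Hsp70, stood at 1320, 779.8, 1344, 1991, 934 and 1178 CPM without FSH and at 1057, 786, 1147, 1173 and 1166 CPM with FSH. Replicate 4 was again the highest, at 1.69 times the median of the other degarelix only rats, and the groups otherwise overlapped (log2 change -0.24 ± 0.21, adjusted p = 0.524; -0.06 without replicate 4 and 0.02 without replicates 3 and 4). The second row named Hspa8 held 924 counts over all libraries and had a log2 change of 0.17 (adjusted p = 0.617). Hsp90ab1, the constitutive cytosolic Hsp90, was also highest in replicates 4 and 3, with 2954 and 2029 CPM, 1067 to 1848 CPM in the other rats of the group and 1054 to 1539 CPM with FSH. The fitted value was -0.40 ± 0.22 on the log2 scale (adjusted p = 0.304), or -0.21 without replicate 4 and -0.10 without both.

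Hspa4, a constitutive Hsp110, was steadier from rat to rat. It stood at 191, 159.0, 168, 187, 176 and 177 CPM without FSH and at 141, 149, 154, 148 and 160.2 CPM with FSH. A single degarelix only rat, replicate 2, lay within the FSH range, and the log2 change of -0.23 ± 0.06 gave an adjusted p of 0.0686 in edgeR and 0.00556 in DESeq2. Without replicates 3 and 4 it was -0.22. The Hsp40 members Dnaja2, Dnajb6 and Dnajc7 had log2 changes of -0.11, -0.02 and -0.04.

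Hspa2, an Hsp70 best known from the testis, had the highest fitted value of the 67 members tested. It stood at 6.85, 9.97, 7.88, 12.5, 7.74 and 9.60 CPM without FSH and at 12.3, 17.0, 64.0, 20.7 and 14.3 CPM with FSH. FSH replicate 3 was far above the other 4, and only FSH replicate 1 fell within the degarelix only range. The log2 change was 1.48 ± 0.40 (adjusted p = 0.0716 in edgeR, 0.00322 in DESeq2), and 0.82 without FSH replicate 3. That rat also had the highest level of Hspa12a (56.7 CPM, against 15.7 to 23.9 CPM in the other FSH rats), of the muscle small heat shock protein Hspb2 (7.35 CPM, against 1.30 to 2.04 CPM) and of the mesothelial markers summed (10.0 CPM, against 0.242 to 1.85 CPM). In degarelix only replicate 3 these markers summed to 6.00 CPM. The brown adipocyte marker Ucp1 stood at 7.43 CPM in FSH replicate 3 and at 0 to 0.0601 CPM in the other FSH rats. Cidea, the other such marker matched, stood at 121 CPM there, within the 93.9 to 182 CPM of the degarelix only rats. The part of the mesothelial and brown adipocyte markers in these values was not tested. Without FSH replicate 3 the fitted value of Hspa12a turned from 0.25 to -0.23 on the log2 scale.

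Members of the endoplasmic reticulum had a median log2 change of -0.10 over 10 tested, 7 fitted lower and 3 higher. Hspa5 (BiP), the Hsp70 of this compartment, stood at 585, 461, 805, 1143, 752 and 838 CPM without FSH and at 612, 701, 717, 788 and 616 CPM with FSH. The groups overlapped fully below replicate 4 (log2 change -0.15 ± 0.19, adjusted p = 0.662; -0.003 without replicate 4 and 0.06 without replicates 3 and 4). Hsp90b1 (Grp94), its Hsp90, also peaked in replicate 4, at 843 CPM, and had a log2 change of 0.04 ± 0.18 (adjusted p = 0.910). Its value moved between -0.04 and 0.17 as single rats were left out.

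Dnajb12, a membrane-bound DnaJ of the endoplasmic reticulum that works with Hspa8 in the removal of faulty membrane proteins, had the smallest p of all members. It stood at 97.2, 90.6, 92.1, 83.5, 74.9 and 94.2 CPM without FSH and at 71.6, 66.6, 77.3, 76.4 and 67.7 CPM with FSH. Only degarelix only replicate 5 lay within the FSH range. The log2 change was -0.30 ± 0.07, with an adjusted p of 0.0530 in edgeR, just outside the threshold, and 0.00522 in DESeq2. It passed edgeR's threshold with upper-quartile factors (adjusted p = 0.0470), and without degarelix only replicate 4 (0.0446), degarelix only replicate 5 (0.0472) or FSH replicate 4 (0.0461). Dnajc3, which restrains the kinase Perk, had -0.19 ± 0.08 (adjusted p = 0.160), and the stress-responsive Dnajb9 and Dnajc10 had 0.02 and 0.01.

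The mitochondrial class had a median log2 change of -0.16, with 5 of 7 members fitted lower. Degarelix only replicate 4 was the highest rat in 0 of these 7 members, against 9.62% of genes with a mean of at least 1 CPM. Replicate 1 was the highest in 4 of the 7, against 1748 of those 12157 genes, the most of any rat. Hspa9 (mortalin), the Hsp70 that pulls proteins into the matrix, stood at 327, 216, 238, 239.98, 314 and 269 CPM without FSH and at 159, 172, 208, 239.5 and 212 CPM with FSH. Only FSH replicate 4 entered the low end of the degarelix only range (log2 change -0.43 ± 0.13, adjusted p = 0.0962 in edgeR, 0.0275 in DESeq2; -0.51 without replicates 3 and 4). Hspd1 (Hsp60), the matrix chaperonin, averaged 532 ± 60.2 CPM in the degarelix only rats (SD, n = 6) and 437 ± 68.3 CPM in the FSH rats (SD, n = 5). The ranges overlapped, and the log2 change was -0.28 ± 0.12 (adjusted p = 0.176 in edgeR's quasi-likelihood test).

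Dnajc11, a DnaJ of the mitochondrial membranes tied to cristae, stood at 60.9, 46.8, 50.1, 40.1, 49.5 and 49.7 CPM without FSH and at 42.0, 36.0, 41.7, 43.0 and 38.8 CPM with FSH. In this case degarelix only replicate 4 was the lowest rat of its group, the reverse of the stress-induced class. The log2 change was -0.30 ± 0.09 (adjusted p = 0.100), and -0.35 without replicate 4, where edgeR's adjusted p was 0.0360. Dnaja3 and Dnajc30 had -0.15 and -0.16, and the import motor parts Dnajc15 and Dnajc19 had 0.12 and 0.07.

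**Figure D3:**
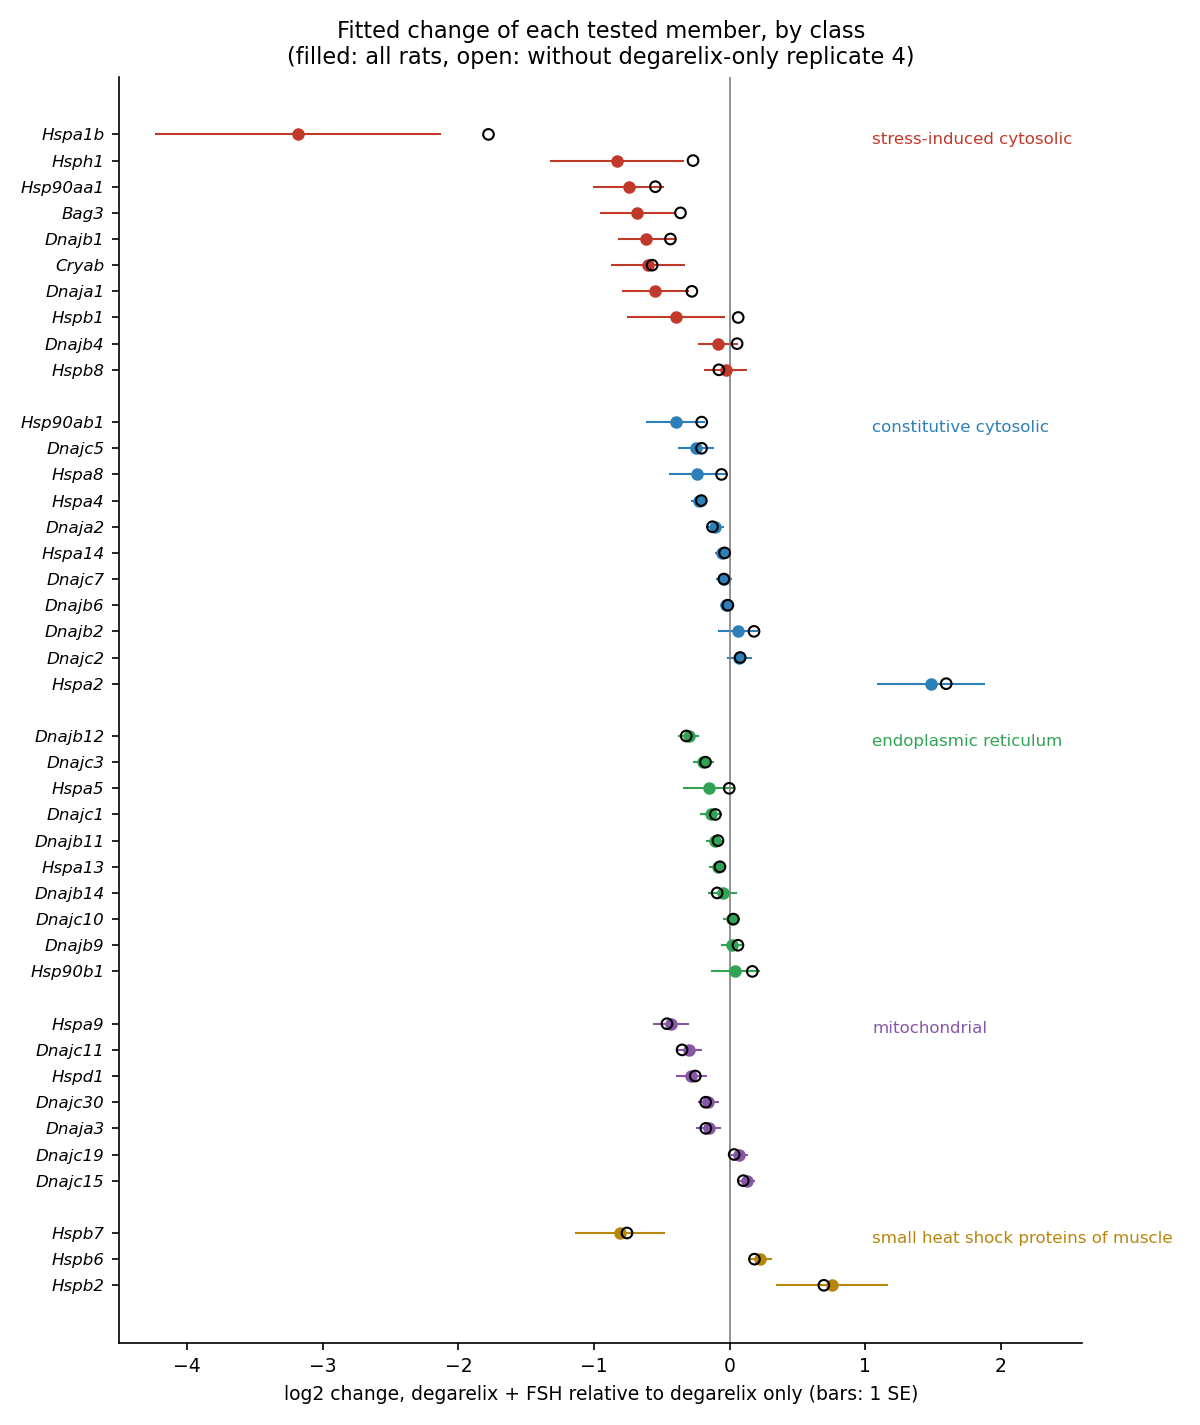
Fitted log2 change of the 41 tested members in 5 classes (filled points with bars of 1 SE) and the same without degarelix only replicate 4 (open circles). The open circles lie to the right of the filled ones for most stress-induced members, from -3.18 to -1.78 for Hspa1b, and close to them in the endoplasmic reticulum and mitochondrial classes apart from Hspa5 and Hsp90b1.

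Among the small heat shock proteins of muscle, Hspb3 had 0 counts in every library and the other 3 went different ways. Hspb6 (Hsp20), which acts on smooth muscle relaxation, averaged 22.7 ± 2.43 CPM in the degarelix only rats (SD, n = 6) and 26.6 ± 2.45 CPM in the FSH rats (SD, n = 5), a log2 change of 0.23 ± 0.09 (adjusted p = 0.158 in edgeR's quasi-likelihood test). Hspb7 stood at 14.5, 24.7, 18.8, 20.7, 11.8 and 15.6 CPM without FSH and at 4.74, 10.98, 6.39, 20.3 and 8.24 CPM with FSH. FSH replicate 4 was the only FSH rat inside the degarelix only range, and the log2 change of -0.81 ± 0.33 (adjusted p = 0.182) became -1.22 without it (adjusted p = 0.0332). Hspb2 had 0.75 ± 0.42 (adjusted p = 0.301), and 0.07 without FSH replicate 3. The smooth muscle markers Acta2, Myh11, Tagln, Cnn1 and Des summed to 460 to 654 CPM without FSH and 531 to 820.5 CPM with FSH, and skeletal muscle's Acta1, Ckm and Mylpf were each at a group mean of at most 0.302 CPM. Tnnt3, the other skeletal muscle marker matched, averaged 9.99 CPM without FSH and 8.85 CPM with FSH. The part of smooth and skeletal muscle markers in these values was not tested.

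Of the members outside these classes, several were fitted higher with FSH by small and even steps. Dnajc8, a nuclear DnaJ linked to splicing, stood at 69.2, 78.4, 73.8, 70.7, 67.6 and 68.5 CPM without FSH and at 82.3, 83.0, 83.5, 78.0 and 82.1 CPM with FSH. Degarelix only replicate 2 alone reached the lowest FSH rat (log2 change 0.20 ± 0.05, adjusted p = 0.0635 in edgeR and 0.00833 in DESeq2). Dnajc9, a histone chaperone, stood at 28.8, 29.9, 31.03, 32.2, 30.5 and 28.7 CPM without FSH and at 34.7, 34.1, 32.8, 32.7 and 35.5 CPM with FSH. It was the only one of the 67 members whose groups did not overlap, where 4.34% of all genes did not (log2 change 0.17 ± 0.05, adjusted p = 0.0907 in edgeR and 0.0491 in DESeq2). Dnajc17 had a log2 change of 0.36 ± 0.10 (adjusted p = 0.0715 in edgeR, 0.0213 in DESeq2) and Dnajc4 one of 0.15 ± 0.05 (adjusted p = 0.131).

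Hspa12b, a distant Hsp70 relative found mainly in endothelium, stood at 175, 147, 144, 149, 133 and 155 CPM without FSH and at 212, 181, 176, 161 and 178 CPM with FSH. Only degarelix only replicate 1 reached the FSH range (log2 change 0.27 ± 0.08, adjusted p = 0.0946 in edgeR and 0.0417 in DESeq2). The 5 endothelial markers matched (Cdh5, Vwf, Cldn5, Tek and Esam) were all fitted higher, with a median log2 change of 0.38, and Tek passed the threshold (adjusted p = 0.0431 in edgeR's quasi-likelihood test). They summed to 987 to 1335 CPM in the degarelix only rats and to 1158 to 1901 CPM in the FSH rats. Both Hspa12b and this sum were highest in FSH replicate 1, and the part of the markers in the value of Hspa12b was not tested.

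Dnaja4, an Hsp40 that is both heat-inducible and a known target of the sterol-sensing factor SREBP, stood at 23.6, 20.2, 29.9, 53.9, 28.1 and 25.5 CPM without FSH and at 16.9, 15.4, 20.1, 23.5 and 22.0 CPM with FSH. Replicate 4 was again alone at the top, and the other rats overlapped in part (log2 change -0.63 ± 0.23, adjusted p = 0.147; -0.38 without replicate 4 and -0.31 without replicates 3 and 4). Dnajc16, Dnajc25 and Hspa4l were also at an unadjusted p under 0.05, with log2 changes of -0.42 ± 0.16, -0.33 ± 0.13 and -0.44 ± 0.18 (adjusted p = 0.163, 0.176 and 0.181). The 25 tested members outside the named classes had a median log2 change of 0.03, with 10 fitted lower and 15 higher. The members too low to test, beside Hspa1a and Hspb3, were Dnajb7, Dnajb8, Dnajc5b, Dnajc5g, Dnajc6 and Hspb9. Dnajc6 had 54 counts over all libraries and the other 5 had 5 or fewer.

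**Figure D4:**
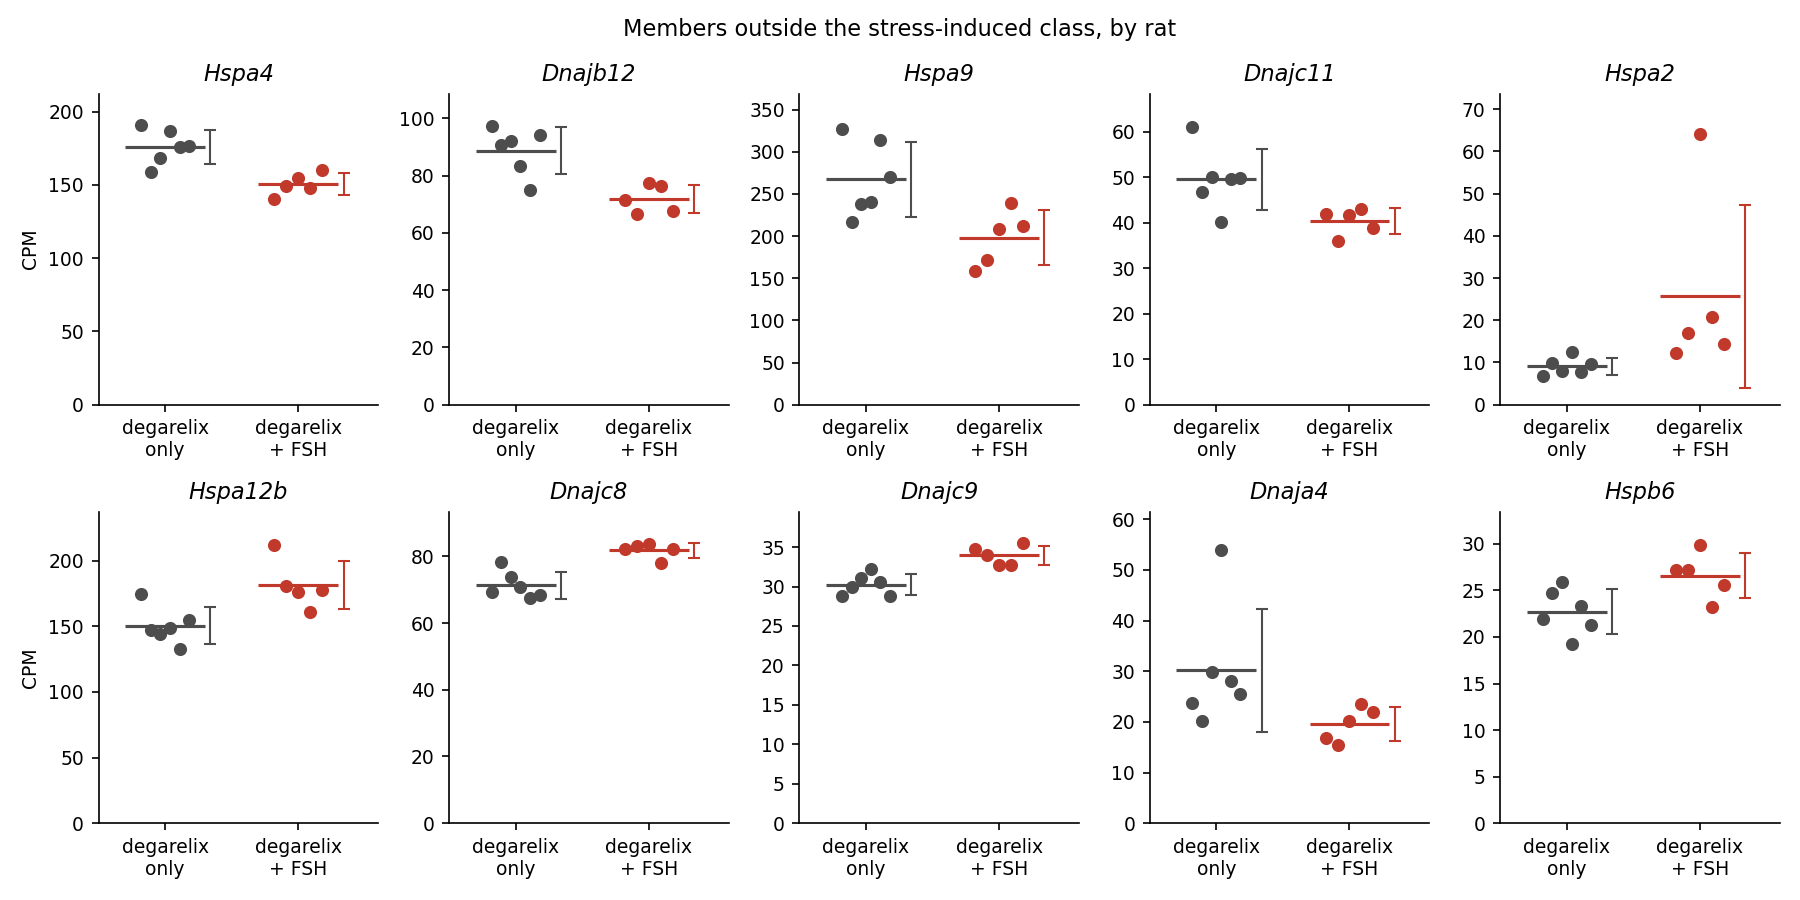
CPM (linear axis from 0) of 10 members outside the stress-induced class, 1 point per rat, with the group mean and bars of 1 SD. Dnajc9 is the only panel without overlap between the groups; Hspa2 is spread by FSH replicate 3 at 64.0 CPM and Dnaja4 by degarelix only replicate 4 at 53.9 CPM.

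To set stress-induced members against constitutive and endoplasmic reticulum relatives within each rat, 6 ratios of counts were compared, which do not depend on library scaling. Per 100 counts of Hspa8, Hspa1b had 0.429, 1.03, 3.65, 8.07, 0.477 and 0.632 counts in degarelix only replicates 1 to 6 and 0.426, 0.353, 0.324, 0.743 and 0.171 counts in FSH replicates 1 to 5. The ratio was thus high in replicates 4 and 3 and overlapped between the groups in the remaining rats. The mean log2 ratio differed by -1.79 (p = 0.0563, 0.113 adjusted over the 6 ratios, two-sided exact permutation test over 462 splits). Against Hspa5 the difference was -1.88 (p = 0.0498, adjusted 0.113, exact permutation test).

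Hsp90aa1 relative to the endoplasmic reticulum Hsp90b1 was the one ratio of the 6 that passed. The 6 pairs were chosen with earlier results of these data known, so the p-values of the ratios are descriptive. Per 100 counts of Hsp90b1, Hsp90aa1 had 0.463, 0.522, 0.603, 0.655, 0.726 and 0.397 counts without FSH and 0.340, 0.370, 0.338, 0.251 and 0.370 counts with FSH. Every FSH rat lay below every degarelix only rat, and the replicate 4 rat was not the highest. The mean log2 ratio was -7.49 ± 0.32 without FSH and -8.22 ± 0.23 with FSH (SD, n = 6 and n = 5), a difference of -0.72 (p = 0.00433, adjusted 0.0260, exact permutation test). With 1 FSH rat left out the adjusted p rose to between 0.0571 and 0.0857 and the difference stayed between -0.63 and -0.77. Fewer splits are possible with a rat left out, so the smallest p this test can give is larger there. Relative to Hsp90ab1 the difference was -0.31 (p = 0.113, adjusted 0.138, exact permutation test). The ratios Hsph1 over Hspa4 (-0.33, p = 0.539) and Dnajb1 over Dnaja2 (-0.45, p = 0.115, adjusted 0.138) did not pass the exact permutation test, and that of Hsph1 was 0.00 without replicate 4. The low counts and the second Hsp90-alpha row named above also bear on the Hsp90aa1 ratios.

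**Figure D5:**
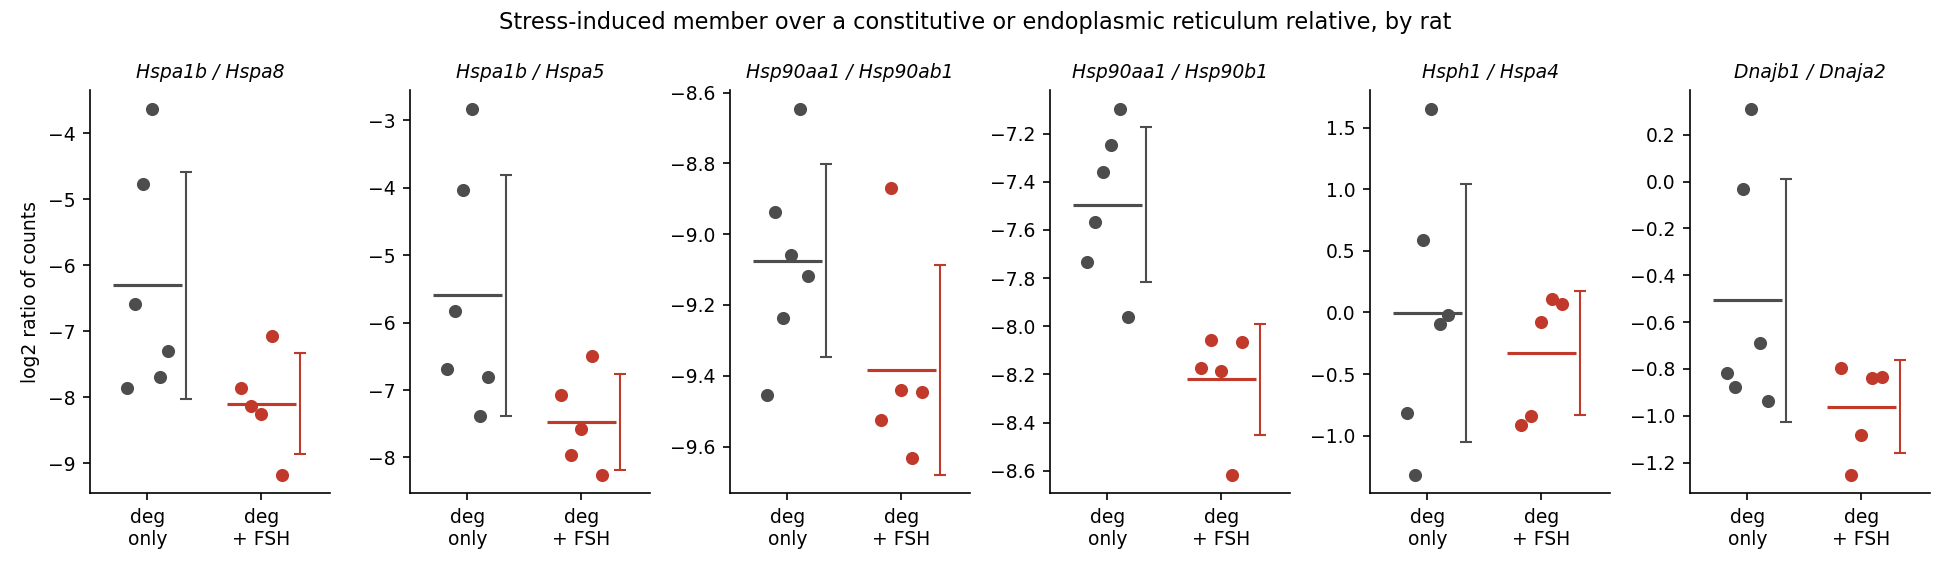
Log2 ratio of counts of a stress-induced member to a constitutive or endoplasmic reticulum relative, 1 point per rat, with the group mean and bars of 1 SD. Only the ratio of Hsp90aa1 to Hsp90b1 separates the groups, with means of -7.49 and -8.22.

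The excess in degarelix only replicate 4 was largest in the stress-induced class. Its ratio to the median of the other 5 degarelix only rats had a median of 2.17 there. The median ratio was 1.08 in the constitutive, 1.09 in the endoplasmic reticulum and 0.891 in the mitochondrial class. Replicate 4 was at least 1.5-fold higher in 8 of 10 stress-induced members (up to 21.5-fold, for Hspa1b). It was so in 4 of 11 constitutive, 2 of 10 endoplasmic reticulum and 0 of 7 mitochondrial members, against 5.86% of all genes with a mean of at least 1 CPM. Some of these lay just past the limit: Dnajb2 at 1.51, Hspa5 at 1.52 and Hsp90b1 at 1.52. By the same limit, against replicates 1, 2, 5 and 6, replicate 3 was higher in 4 stress-induced members (Hspa1b at 7.48-fold, Hsph1, Bag3 and Dnajb1) and in no member of the other classes, against 3.22% of all genes. The 5 macrophage markers summed to 227 CPM in replicate 4. In the other rats without FSH they summed to between 97.8 and 159 CPM, and in the FSH rats to between 103 and 219 CPM. Their part in the chaperone values was not tested.

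The partners of these chaperones, listed by function, also held no gene past the threshold in edgeR. Of 19 cofactors of Hsp70 and Hsp90 tested, 14 were fitted lower and 5 higher (median log2 change -0.08). Replicate 4 was the highest rat in 7, against 9.62% of all genes with a mean of at least 1 CPM. Chordc1, an Hsp90 cofactor and heat shock target, stood at 38.3, 27.8, 48.1, 76.5, 32.0 and 32.9 CPM without FSH and at 30.3, 26.8, 26.8, 29.6 and 33.0 CPM with FSH. The fitted value was -0.54 ± 0.23 on the log2 scale (adjusted p = 0.195). It repeated the order of the stress-induced class, with replicates 4 and 3 on top. Hsf2 (0.26 ± 0.09) and Sugt1 (0.15 ± 0.05) had the smallest p values of the list (adjusted p = 0.134 for both), and Bag4 had -0.38 ± 0.16 (adjusted p = 0.193).

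All 8 subunits of the CCT chaperonin, which folds actin and tubulin, were fitted lower, with a median of -0.14. Degarelix only replicate 4 was the highest rat in 5 of the 8, against the same 9.62% of all genes. Cct3 had -0.21 ± 0.08 (adjusted p = 0.131), Tcp1 -0.19 ± 0.08 (adjusted p = 0.194) and Cct6a -0.19 ± 0.09 (adjusted p = 0.236). Of 21 genes of the unfolded protein response, 14 were fitted lower and 7 higher (median -0.05), with replicate 4 the highest rat in 13; the sensor Atf6 had -0.28 ± 0.10 (adjusted p = 0.120), Ern1 0.17 ± 0.07 (adjusted p = 0.175) and Edem1 -0.23 ± 0.10 (adjusted p = 0.196). The 7 genes of mitochondrial protein quality control had a median of -0.01, and Lonp1, Trap1 and Clpx among them had -0.16, -0.14 and 0.04 (adjusted p = 0.309, 0.488 and 0.686).

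The 9 immediate early genes tested, which rise within minutes of handling or injury, had a median log2 change of 0.12, with 1 fitted lower and 8 higher. Degarelix only replicate 4 was the highest rat in 2 of them, Jun (189 CPM) and Atf3 (20.3 CPM), and replicate 3 in Fos, Fosb and Junb. Fos stood at 2.64, 6.47, 62.2, 6.90, 5.70 and 6.53 CPM without FSH and at 17.8, 41.0, 13.7, 5.42 and 17.4 CPM with FSH, high in degarelix only replicate 3 and not in replicate 4. Its log2 change was 0.35 ± 0.79, that of Egr1 was 0.40 ± 0.56 and that of Nr4a1 was 0.42 ± 0.35 (adjusted p = 0.492).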

How the data were processed

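RNA from 11 fat samples, 1 per rat, was made into strand-marking paired-end mRNA libraries, per the labels' protocols. The deposited table holds counts: whole numbers for each Ensembl gene, unnormalized, to judge by the values. STAR, edgeR, DESeq2 and build rn6 are named per the submitters' processing notes, without roles. Counter, annotation and strand setting: not given in the sources used here, so overlapping, antisense and near-identical genes (Hspa1a, Hspa1b and Hspa1l; Hspa8 and Hsp90aa1 copies) are uncertain. Where 2 rows shared the symbol Hspa8, that with more counts (ENSRNOG00000034066) was taken as the gene.

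Columns were assigned by names matching the labels. Pcmt1 was left out because 1 cell holds a letter. Counts were fitted with edgeR 4.0.16 (R 4.3.3; filterByExpr, TMM, robust quasi-likelihood test, 9 residual df) and p-values adjusted by Benjamini-Hochberg over 12846 genes; standard errors derive from that test. A count of 0 allows 0.127 to 0.228 CPM (3 counts of the total), for counting error only. Ratios were tested by exact permutation over 462 splits (smallest p 0.00216), with 0.5 added to counts. All tests were two-sided. DESeq2 1.42.0, limma-voom (limma 3.58.1), other scalings and filters, the replicate number as a block, and each library left out were alternatives. The edgeR step was tested on simulated data of 12749 genes kept, where it recovered 26 of 49 genes changed 1.5-fold, 40 of 48 changed 2-fold and 46 of 47 changed 3-fold, with 8 false calls among 168. The simulated counts were drawn independently for each gene and held no outlying rat. These shares therefore do not apply to genes that 1 or 2 rats raise, such as Hspa1b and Hsph1.

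The members, classes, lists and ratios were chosen with earlier results of these data known. Genes named were the stress-induced class, Hsf1, the 12 further members of smallest p, the 2 most abundant of each other class, 9 preset members, and the 3 smallest p of each pathway list; others (such as Hspa12a, Chordc1, Dnajc16) were singled out after their values were seen. Promoter sequences are RefSeq's (GRCr8).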

Additional observations from a re-analysis of the deposited data

Results flagged for a closer look

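Values of 30 named members were searched in each group of rats for a highest or lowest rat that stood apart from the nearest other by most of the group's range (Dixon's criterion). Of 60 such groups of values, 8 were singled out. The criterion's rate of about 1 in 20 is for independent, normally distributed values. These genes vary together and were named in part for a small p in these data, so the 8 are not set against that rate. Degarelix only replicate 4 stood apart as the highest of its group for Hspa1b (161 CPM, next 49.0 CPM), Hspb1 (1773 CPM, next 729.8 CPM), Hsph1 (586 CPM, next 252 CPM) and Dnaja4 (53.9 CPM, next 29.9 CPM). Among the FSH rats, replicate 3 stood apart as the highest for Hspa2 (64.0 CPM, next 20.7 CPM) and Bag3 (47.8 CPM, next 43.1 CPM). The lowest FSH value stood apart for Hsf1 in replicate 2 (47.0 CPM, next 57.3 CPM) and for Dnajc8 in replicate 4 (78.0 CPM, next 82.1 CPM).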

How the results depend on the processing

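Over all genes, 292 passed edgeR's threshold, against 1105 in DESeq2, 14 with the replicate block, 472 without degarelix only replicates 3 and 4 together (chosen after seeing the data) and 30 to 551 with 1 library left out. No member passed in the edgeR fit on all rats (24 at an unadjusted p under 0.05); 1 did with upper-quartile factors, 11 in DESeq2 and 0 to 3 with 1 library left out. Of the 10 stress-induced members, 6 were at an unadjusted p under 0.05, against 22.6% of all genes. The 6 became 3 with limma-voom (21.8% of all genes) and 3 to 7 with 1 library left out (17.9% to 24.6% of all genes). Without replicates 3 and 4 together there were 2 of 10, against 23.3% of all genes. Of these only Dnajb1 (-0.26) was among the 6, all of which were fitted lower. The other, Dnajb4, was fitted higher there (0.16). The median of the stress-induced class lay between -0.67 and -0.32 with 1 library left out. Same-numbered rats were not paired (correlations of their deviations -0.111 to 0.156, with 0 of 5 FSH rats closest to their own number), and no member passed with the replicate block. The sign turned for Hsf1 with DESeq2's size factors (-0.00059), in DESeq2 (-0.0029) and with the replicate block (-0.013), for Hspb8 with limma-voom (0.019), and without replicates 3 and 4 together for Dnajb4 (0.16), Hspb1 (0.19), Hspa8 (0.017), Hspa5 (0.059) and the ratio Hsph1/Hspa4 (0.23). With 1 library left out the range crossed 0 for 16 of 67 members, each of which had a fitted value of at most 0.396 in size on all rats. Among those named were Dnajb4 (-0.14 to 0.055), Hspb1 (-0.54 to 0.063), Hspb8 (-0.13 to 0.078), Hsf1 (-0.020 to 0.063), Hsp90b1 (-0.043 to 0.17), Dnajb9 (-0.016 to 0.061), Dnajc10 (-0.0097 to 0.049) and Hspa12a (-0.23 to 0.39), and the range of the log2 ratio Hsph1/Hspa4 did too (-0.59 to 0.0015). The difference in Hsp90aa1/Hsp90b1 lay between -0.82 and -0.63 over the same settings, and no longer passed when any FSH rat was left out. The cause of these turns was not tested. Counts per library limit Hsp90aa1 (28 to 120 counts) and Hspa1b (41 to 3492 counts).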
